A study of Homo sapiens with 4 samples.

Results

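AKT1, AKT2, PHLPP1, PHLPP2, PIK3CA, PIK3CB, PIK3R1 and INPP4B were followed in the lung adenocarcinoma line A549. These 8 genes were taken by their gene names from the 50868 genes of the deposited count tables, because the PHLPP phosphatases, which act on AKT, have been described as targets of the deubiquitinase USP12 and its partner WDR48. The rule itself uses gene names alone, but the genes were chosen with earlier results of these data known. All 8 passed the filter on low counts and were among the 15222 genes tested.

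The study compared control A549 cells with A549 cells in which USP12 was overexpressed, each as 2 libraries of stranded mRNA. According to the methods, tagged human USP12 was cloned into a lentiviral (pLVX) vector, and the study abbreviates the control cells as EV. A549 is 1 established line. Neither the labels nor the methods say whether the replicates of a group were grown as separate cultures, so p-values measure only the spread between these libraries, which may be technical.

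PI3K is a lipid kinase that is recruited to activated receptors and marks the inner side of the membrane with a phosphoinositide. AKT kinases bind that lipid, are phosphorylated there, and then act on substrates such as the FOXO transcription factors and the TSC complex. Lipid phosphatases such as INPP4B remove the lipid signal, whereas the PHLPP phosphatases take an activating phosphate off AKT itself. Most of this control acts on protein phosphorylation and stability, which mRNA libraries do not measure.

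The promoters of 3 members are shown because PIK3CA and PIK3R1 had the most alike profiles of any pair of members across the 4 libraries (the values follow), and AKT1 stood opposite to them in the control libraries. Each run is the 250 bases before a RefSeq transcription start on GRCh38.p14, the first start listed for the gene, and 8 of 8 members had an entry. Capitals mark the motifs searched on both strands, which were the FOXO site GTAAACA, the NF-kB site, the CRE TGACGTCA and the GC box GGGCGG. Overlapping GC boxes run together in the capitals. The PIK3CA window lies almost wholly inside the gene as GENCODE places it, the FOXO site included, because the GENCODE start is farther upstream. Further starts are listed for AKT1 (1, with 1 GC box and 57.2% GC in its window) and PIK3R1 (3, with 0 to 2 GC boxes and 39.6% to 60% GC).
PIK3CA, chr3:179148107-179148356, plus strand: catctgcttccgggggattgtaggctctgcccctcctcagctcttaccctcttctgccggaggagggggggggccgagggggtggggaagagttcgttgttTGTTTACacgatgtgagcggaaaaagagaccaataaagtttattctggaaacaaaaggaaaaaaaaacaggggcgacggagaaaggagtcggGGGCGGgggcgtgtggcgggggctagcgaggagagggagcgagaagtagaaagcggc
PIK3R1, chr5:68215506-68215755, plus strand: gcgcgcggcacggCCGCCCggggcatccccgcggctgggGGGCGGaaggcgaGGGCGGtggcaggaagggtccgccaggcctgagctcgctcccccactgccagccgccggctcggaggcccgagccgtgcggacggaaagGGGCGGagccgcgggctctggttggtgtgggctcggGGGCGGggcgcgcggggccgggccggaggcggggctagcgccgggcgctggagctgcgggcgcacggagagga
AKT1, chr14:104795749-104795998, minus strand: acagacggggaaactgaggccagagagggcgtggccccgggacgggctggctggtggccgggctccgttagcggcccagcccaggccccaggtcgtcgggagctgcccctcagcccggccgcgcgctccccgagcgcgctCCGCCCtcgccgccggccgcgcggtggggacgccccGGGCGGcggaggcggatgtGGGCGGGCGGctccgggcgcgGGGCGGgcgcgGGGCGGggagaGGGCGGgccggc
The PIK3CA window held 1 FOXO site (TGTTTAC on the printed strand) and 1 GC box. The PIK3R1 window held 5 GC boxes and the AKT1 window held 7, with no FOXO site in either. Of 35116 promoter windows of the same length, 2.98% held the FOXO site and 42.6% held a GC box. The GC content of the window was 57.6% for PIK3CA, 81.6% for PIK3R1 and 83.2% for AKT1. A match here is only a match of letters.

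The 4 libraries held between 14280081 and 16305356 counts, and 3 counts corresponded to between 0.166 and 0.227 CPM (counts scaled to library size by the TMM method). USP12 itself stood at 15.2 and 34.4 CPM in the control libraries and at 1745 and 2235 CPM in the USP12 libraries, so the target gene followed the labels in all 4 libraries. All 5 epithelial keratin and adhesion markers (KRT8, KRT18, KRT19, EPCAM and CDH1) were present, their summed level ranged from 5060 to 9638 CPM in controls and from 3976 to 4275 CPM in USP12 libraries, and 4 of 5 did not overlap between groups, against 36.5% of all tested genes. Among markers of other cells, PTPRC had at most 1 count in any library, and CD3E and DCN were at 0 in all 4. Other genes of those lists were present, among them CD14 with 424 and 85 counts in controls and 185 and 174 with USP12, and COL1A1 with 172 and 47 counts in controls and 262 and 211 with USP12, groups that did not overlap. LYZ, of the leukocyte list, had 11 and 27 counts in controls against 1 and 3 with USP12. CDH5, an endothelial cadherin, had 136 and 96 counts in controls against 2 and 5 with USP12, and PECAM1 had 68 and 56 against 4 and 14. VWF had 0 and 3 counts in controls and 0 in both USP12 libraries, and KDR had 0 in both controls and 1 and 0 with USP12. The summed endothelial list (PECAM1, VWF, CDH5 and KDR), which was thus almost wholly CDH5 and PECAM1, ranged from 8.59 to 15.4 CPM in controls and from 0.504 to 1.32 CPM with USP12. In bulk libraries, fewer cells of a type and less RNA per cell cannot be told apart. The part of these markers in the results was not tested. In the tables the heading over the counts begins differently for control replicate 1 than for the other 3 libraries. What that prefix marks is not stated, and it cannot be told apart from that library.

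None of the 8 genes changed with USP12 overexpression at an adjusted p under 0.05 in edgeR's quasi-likelihood test, and none did at an unadjusted p under 0.05 either. Across all tested genes, 0% passed the adjusted threshold and 7.59% passed the unadjusted one, 4.55% lower and 3.04% higher. The smallest adjusted p of any gene in this test, 0.0975, was that of USP12 itself, at a log2 fold change of 6.32. Since not even the overexpressed gene was called, the absence of calls does not set the 8 genes apart. The estimates were lower with USP12 for 5 members and higher for 3, with a median log2 fold change of -0.17 against -0.06 over all tested genes. Adjusted p-values of the 8 genes ran from 0.842 to 0.991. With other tests on all 4 libraries, the DESeq2 Wald test called 2.67% of all genes and edgeR's exact test 2.82%, and neither called a member. The members were measured with 44 to 5546 counts per library.

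**Figure D1:**
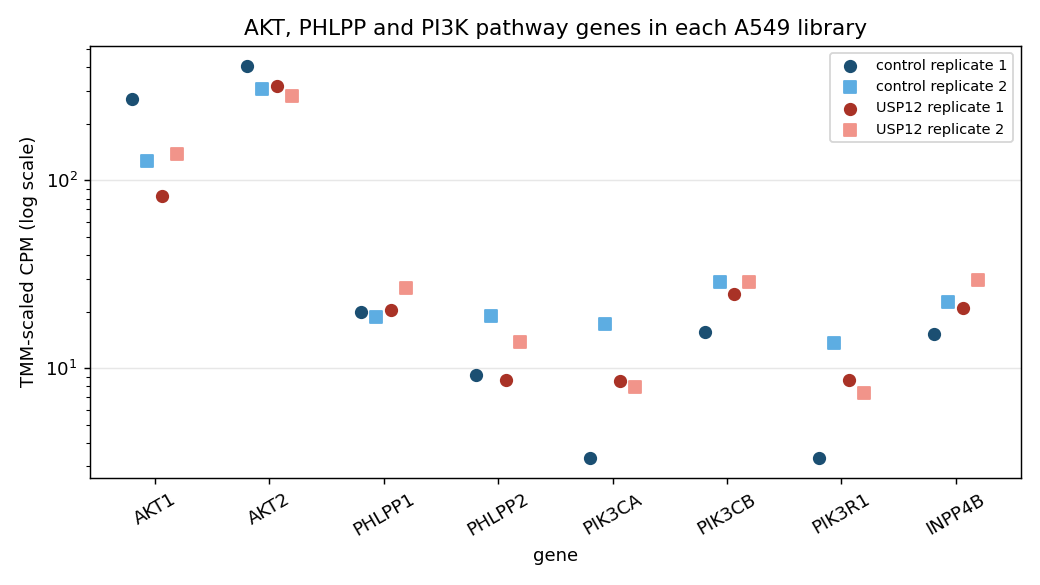
Level of each of the 8 genes in the 4 libraries (vertical axis, CPM on a log scale), with control and USP12 libraries as separate points. The control points of PIK3CA (3.33 and 17.3 CPM) and PIK3R1 (3.33 and 13.6 CPM) stand far apart with the USP12 points between them, and PHLPP1 is the gene whose groups do not overlap.

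Levels were compared between genes only per length, as CPM per kilobase of merged exons. AKT2 had the highest mean level over the 4 libraries, 20.7 (range 17.7 to 25.7), and AKT1 followed at 14.1 (7.55 to 24.8). PIK3CB averaged 3.11, PHLPP1 2.37, INPP4B 1.51 and PHLPP2 1.01. PIK3CA, at 0.540, and PIK3R1, at 0.506, were lowest. Neighbours in this order had overlapping ranges over the libraries, except AKT1 above PIK3CB and PHLPP1 above INPP4B. Read within each library, AKT2 was also above AKT1, INPP4B above PHLPP2 and PHLPP2 above PIK3CA in 4 of 4 libraries, PIK3CB was above PHLPP1 in 3 of 4, and PIK3CA above PIK3R1 in 2 of 4. Per kilobase of the longest transcript, the ranges of AKT2 (53.7 to 77.7) and AKT1 (9.85 to 32.3) no longer overlapped and PIK3R1 came above PIK3CA.

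PIK3CA encodes the alpha catalytic subunit of PI3K, the lipid kinase at the head of the pathway (ENSG00000121879, GRCh38 chr3:179148114-179240093, plus strand). It stood at 3.33 and 17.3 CPM in control replicates 1 and 2 and at 8.57 and 7.97 CPM in USP12 replicates 1 and 2. Both USP12 libraries lay between the controls, which differed 5.19-fold, whereas the USP12 libraries differed 1.08-fold. The log2 fold change was -0.32 ± 0.79 (SE, 2 against 2 libraries, 95% interval -2.24 to 1.59, edgeR adjusted p 0.976). The sign depended on the control library. Against control replicate 2 alone it was -1.06 (adjusted p 0.0547), and against control replicate 1 alone it was 1.34 (adjusted p 0.0344), in edgeR fits in which the lone control was assumed to vary like the USP12 group. Those fits called 10.5% and 32.2% of all genes, and 0 and 4 of the 8 members.

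PIK3R1, the main regulatory subunit that holds the catalytic subunit in check until a receptor binds it, lies at chr5:68215740-68301821 on the plus strand (ENSG00000145675). It stood at 3.33 and 13.6 CPM in the controls and at 8.64 and 7.41 CPM in the USP12 libraries. The pattern was that of PIK3CA, with control replicate 1 lowest, control replicate 2 highest and both USP12 libraries between them. USP12 against control gave a log2 fold change of -0.08 ± 0.73 (SE, 95% interval -1.85 to 1.68, edgeR adjusted p 0.991), and it became -0.76 (adjusted p 0.146) against control replicate 2 alone and 1.296 (adjusted p 0.0406) against control replicate 1 alone.

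PIK3CB encodes the beta catalytic subunit (ENSG00000051382, chr3:138652698-138834928, minus strand). Its levels were 15.5 and 28.6 CPM in the controls and 24.9 and 28.6 CPM with USP12. Both USP12 libraries again lay between the controls, USP12 replicate 2 just under control replicate 2. Its log2 fold change was 0.28 ± 0.48 (SE, 95% interval -0.89 to 1.44, edgeR adjusted p 0.964). Without control replicate 1 it turned to -0.10 (adjusted p 0.819), and without control replicate 2 it was 0.81 (adjusted p 0.0495). Genes with both USP12 libraries between the controls numbered 3 of the 8 members (37.5%), against 36.7% of all tested genes.

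AKT1, the most widely studied AKT kinase, maps to chr14:104769349-104795751 on the minus strand (ENSG00000142208). Its levels were 271 and 126 CPM in the controls and 82.7 and 138 CPM with USP12. USP12 replicate 1 was the lowest library and control replicate 1 the highest, but USP12 replicate 2 stood above control replicate 2, so the groups overlapped. The log2 fold change was -0.85 ± 0.50 (SE, 95% interval -2.07 to 0.38, unadjusted p 0.142, edgeR adjusted p 0.842). The controls alone differed 2.15-fold and the USP12 libraries 1.67-fold. Against control replicate 2 alone the difference was -0.19 (adjusted p 0.727), and against control replicate 1 alone it was -1.27 (adjusted p 0.0247).

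AKT2, the isoform tied to insulin-driven glucose uptake (ENSG00000105221, chr19:40230317-40285536, minus strand), had the highest counts of the 8 genes. It stood at 408 and 307 CPM in the controls and at 317 and 282 CPM with USP12, where USP12 replicate 1 was above control replicate 2. USP12 against control gave a log2 fold change of -0.26 ± 0.34 (SE, 95% interval -1.08 to 0.57, edgeR adjusted p 0.951). It came to -0.036 when control replicate 1 was left out and to -0.42 when control replicate 2 was. The interval was the narrowest of the 8 genes. That interval does not exclude a 1.33-fold difference, which is the size of the gap between the controls.

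PHLPP1 was the only member whose groups did not overlap (ENSG00000081913, chr18:62715541-62980433, plus strand), whereas 36.5% of all tested genes did not overlap (19.5% higher and 17% lower with USP12). Its levels were 20.0 and 18.8 CPM in the controls and 20.4 and 26.7 CPM with USP12. The separation rested on a narrow gap, since USP12 replicate 1 and control replicate 1 were nearly equal. The log2 fold change was 0.28 ± 0.43 (SE, 95% interval -0.76 to 1.32, unadjusted p 0.533, edgeR adjusted p 0.962). PHLPP1 had the closest controls of the 8 genes, 1.06-fold apart, and its estimate was positive in all 12 alternative fits, from 0.07 without USP12 replicate 2 to 0.48 without USP12 replicate 1. PHLPP1 was also the 1 member whose USP12 libraries differed by more than its controls.

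PHLPP2, the paralogue of PHLPP1 (ENSG00000040199, chr16:71637835-71724701, minus strand), stood at 9.16 and 18.9 CPM in the controls and at 8.64 and 13.9 CPM with USP12. In each group replicate 1 was the lower library, and the groups overlapped. The log2 fold change was -0.32 ± 0.56 (SE, 95% interval -1.68 to 1.04, edgeR adjusted p 0.964). It ranged from -0.75 without control replicate 1 to 0.32 without control replicate 2.

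INPP4B, a lipid phosphatase that ends the phosphoinositide signal (ENSG00000109452, chr4:142023160-142847432, minus strand), stood at 15.2 and 22.5 CPM in the controls and at 20.9 and 29.3 CPM with USP12. USP12 replicate 2 was the highest library, and USP12 replicate 1 was below control replicate 2. Its log2 fold change was 0.41 ± 0.46 (SE, 95% interval -0.71 to 1.54, edgeR adjusted p 0.942). It was positive in all 12 alternative fits, between 0.14 and 0.75.

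**Figure D2:**
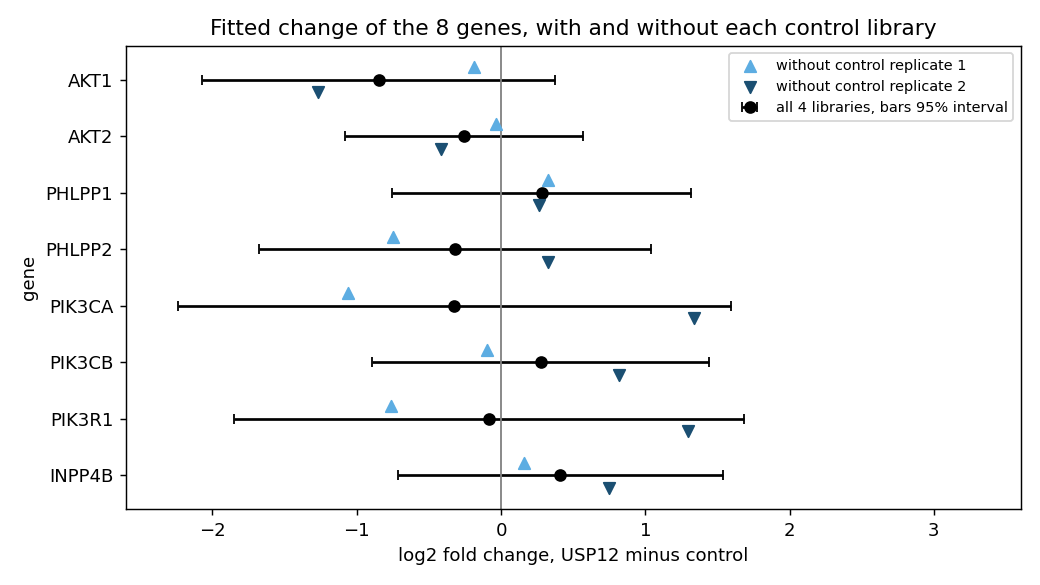
Log2 fold change of the 8 genes, USP12 against control, as the estimate from all 4 libraries (circles, with 95% intervals from edgeR's quasi-likelihood fit) and without either control library (triangles). All 8 intervals cross 0, and the triangles stand farthest apart for PIK3CA (-1.06 and 1.34) and close together for PHLPP1 (0.33 and 0.27).

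The same readings were taken as ratios within a library, which do not depend on library size. The ratio of AKT1 to AKT2 counts was 0.665 and 0.411 in the controls and 0.261 and 0.491 with USP12. The PHLPP1 to PHLPP2 ratio was 2.18 and 0.994 in the controls and 2.36 and 1.93 with USP12, and the PIK3CA to PIK3CB ratio was 0.215 and 0.603 against 0.344 and 0.278. Groups overlapped in all 3 ratios. Exact two-sided permutation tests gave p 0.667 for AKT1 to AKT2, p 0.667 for PHLPP1 to PHLPP2 and p 1 for PIK3CA to PIK3CB, each with an adjusted p of 1 over the 3 ratios. With 2 against 2 libraries no exact p can be under 0.333.

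In 7 of the 8 genes, all but PHLPP1, the controls differed from each other by more than the estimated effect of USP12 and by more than the USP12 libraries did. The latter held for 81.0% of all tested genes. The direction of the control gap followed the base composition of the transcripts. The 5 members poorest in GC, PIK3CA (35.7%), INPP4B (37.2%), PIK3R1 (40.1%), PIK3CB (40.7%) and PHLPP2 (45.0%), were all lower in control replicate 1 than in control replicate 2. PHLPP1 (56.3%), AKT2 (58.0%) and AKT1 (62.1%) were all higher in it.

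The same held over all tested genes with a known GC content. The median log2 difference of control replicate 1 minus control replicate 2 was -0.98 for 2495 genes under 40% GC, -0.50 for 5788 genes from 40 to 50%, 0.55 for 4661 genes from 50 to 60% and 1.04 for 2150 genes above that. Between the USP12 libraries these medians were -0.08, -0.03, 0.03 and 0.10. Across the 15094 genes, which share the same 2 libraries, Spearman's rho of GC content with the control difference was 0.59, and with the USP12 difference 0.14. An edgeR fit with a GC-dependent offset was an alternative added after seeing the data. In it AKT1 moved from -0.85 to -0.44 (adjusted p 0.715), PIK3CA from -0.32 to -0.12 and AKT2 from -0.26 to -0.04. PHLPP1 moved from 0.28 to 0.41 (adjusted p 0.739) and PHLPP2 from -0.32 to -0.48 (adjusted p 0.738). PIK3CB was at 0.19, PIK3R1 at -0.0074 and INPP4B at 0.34. In that fit 0.113% of all genes and none of the 8 passed the threshold.

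**Figure D3:**
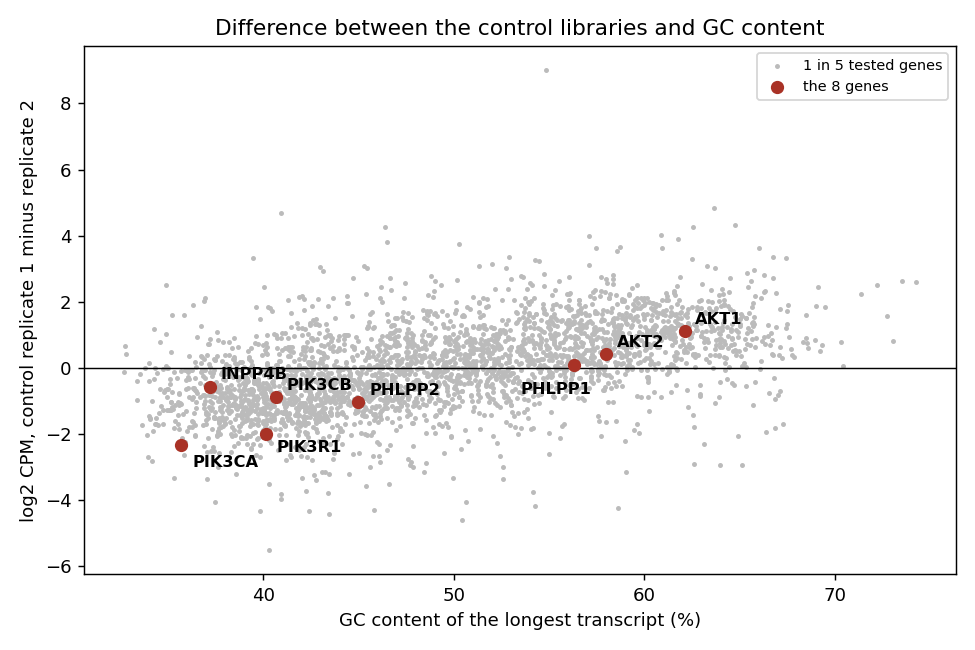
Difference between control replicates 1 and 2 (vertical axis, log2 CPM) against the GC content of the longest transcript (horizontal axis, percent), with 1 in 5 tested genes in grey and the 8 members in red. The 5 GC-poor members lie below 0, PIK3CA lowest at -2.33, and the 3 GC-rich members lie above 0, AKT1 highest at 1.10.

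PIK3CA and PIK3R1, the catalytic and regulatory subunits of one enzyme, had the closest profiles of any pair of members, at a distance of 0.283 between log2 CPM centred over the 4 libraries. Among all tested genes, however, PIK3R1 was only the 37th nearest to PIK3CA, and PIK3CA the 67th nearest to PIK3R1. The nearest profiles to PIK3CA were those of ZNF451 (distance 0.00530) and MTM1 (0.113), and to PIK3R1 those of ZNF112 (0.0238) and FKBP5 (0.0455), a co-chaperone known to bind AKT. Nearest to PIK3CB were NUP107 (0.0206) and SNX25 (0.0382). AKT1 was nearest to ZNF815P (0.140) and TNFSF10 (0.170), AKT2 to ALYREF (0.0208) and NABP2 (0.0238), PHLPP1 to GUCD1 (0.0503) and C19orf12 (0.0624), PHLPP2 to UBA6 (0.0508) and RIC1 (0.0882), and INPP4B to CBL (0.0446) and GALNT10 (0.0607). These distances rest on 4 libraries.

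Genes on the opposite strand overlap exons of 4 members, and whether the counting used strand is not stated. KCNMB3, opposite PIK3CA, had 5 and 41 counts in the controls and 24 and 32 with USP12, against 44 to 312 for PIK3CA. MARVELD3, opposite PHLPP2, had 50 and 15 counts in the controls and 4 and 12 with USP12. The unnamed genes opposite AKT1, PHLPP2 and INPP4B had at most 9 counts in any library. No gene on the same strand shared an exon with a member.

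The rest of the pathway was read from 8 lists that hold 82 further genes of the tables, of which 78 were tested. None passed the adjusted threshold in edgeR's quasi-likelihood test. At an unadjusted p under 0.05 there were 4 lower (IRS2, ERBB3, DEPTOR and TXNIP) and 3 higher (IRS1, SESN1 and PDK4), of which IRS2 and SESN1 are named after their values were seen. The groups did not overlap for 27 of the 78 genes (34.6%), 15 lower and 12 higher, near the 36.5% of all tested genes. Without control replicate 1 edgeR called 11 listed genes, and without control replicate 2 it called 28, where 10.5% and 32.2% of all genes were called. The median log2 fold change was -0.18 against -0.06 over all tested genes.

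Of the other PI3K subunits and adaptors, 4 of 7 were tested. None passed at an unadjusted p under 0.05, and 2 did not overlap, both lower (50%, against 36.5% of all tested genes). PIK3AP1, an adaptor that recruits PI3K, stood at 2.04 and 7.37 CPM in the controls and 2.02 and 2.01 CPM with USP12 (log2 fold change -1.23 ± 0.77, SE). The PIK3R2 regulatory subunit stood at 90.5 and 59.0 CPM against 40.5 and 50.7 CPM (-0.71 ± 0.41). Its difference was -0.37 when control replicate 1 was left out and -0.96 when control replicate 2 was. PIK3AP1 was at -1.87 and 0.0065 in the same fits. The PIK3AP1 separation rested on control replicate 1 lying only just above the USP12 libraries.

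Receptors and adaptors upstream of PI3K held the opposite readings of the insulin receptor substrates, which link the insulin and IGF receptors to PI3K. IRS1 was at 51.2 and 68.0 CPM in the controls and 116 and 156 CPM with USP12, and IRS2 was at 90.6 and 136 CPM against 54.2 and 49.4 CPM. Neither pair of groups overlapped. The log2 fold changes were 1.19 ± 0.38 (SE, edgeR adjusted p 0.474) for IRS1 and -1.13 ± 0.39 (adjusted p 0.518) for IRS2. ERBB3, a receptor that recruits PI3K directly, was at 21.9 and 16.9 CPM against 10.1 and 7.55 CPM (-1.13 ± 0.46, adjusted p 0.655). Of the 7 genes of the list, 2 did not overlap and were lower, 2 did not overlap and were higher, and 3 overlapped, against 17% lower and 19.5% higher among all tested genes. In edgeR without control replicate 2, IRS1 was at 1.44 and ERBB3 at -1.28. IRS2 was at -1.40 without control replicate 1 and at -0.78 without control replicate 2.

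Of the other kinases and kinase complex subunits listed at the level of AKT, 10 of 11 overlapped between groups, and SGK3 (2.50 and 2.55 CPM against 2.81 and 3.05 CPM) was the exception, with a log2 fold change of 0.21 ± 0.59. All 10 listed phosphatases of lipids and of AKT other than the members overlapped, with a median log2 fold change of -0.02. The shares not overlapping were 9.09% in the kinase list and 0% in the phosphatase list, against 36.5% of all tested genes.

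Of 10 tested genes whose proteins bind AKT, 1 did not overlap and was lower, 3 did not overlap and were higher, and 6 overlapped. The share not overlapping, 40%, was near the 36.5% of all tested genes. TRIB3, a pseudokinase that binds AKT, was at 106 and 242 CPM against 64.2 and 97.1 CPM (log2 fold change -1.11 ± 0.51, edgeR adjusted p 0.730), and AKTIP at 4.46 and 9.31 CPM against 11.4 and 10.6 CPM (0.67 ± 0.55). Without control replicate 1 TRIB3 was at -1.59 and AKTIP at 0.24, and without control replicate 2 they were at -0.37 and 1.33.

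Downstream, 6 of the 12 genes of the TSC and mTORC1 branch did not overlap, 4 lower and 2 higher (50%, against 36.5% of all tested genes). DEPTOR, which binds and inhibits mTOR, was at 13.3 and 31.4 CPM against 6.77 and 7.06 CPM (-1.69 ± 0.57, adjusted p 0.501), and RPS6KB2, an S6 kinase, at 154 and 87.6 CPM against 61.8 and 65.0 CPM (-0.93 ± 0.42, adjusted p 0.715). Of 9 AKT substrates, FOXO1 (9.69 and 11.4 CPM against 18.1 and 18.1 CPM, 0.78 ± 0.44) and the cell cycle inhibitor CDKN1B (56.2 and 60.4 CPM against 33.6 and 40.9 CPM, -0.65 ± 0.38) did not overlap. That was 22.2% of the substrates, against 36.5% of all tested genes. Leaving out a control moved several of these genes. Without control replicate 1 DEPTOR was at -2.18 and RPS6KB2 at -0.46. Without control replicate 2 DEPTOR was at -0.92, RPS6KB2 at -1.25 and FOXO1 at 0.93.

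FOXO factors are held in the cytoplasm when AKT phosphorylates them, and 19 of their known target genes were read at the transcript level. Whether FOXO or AKT activity set the levels of these genes was not tested. According to the study, AKT phosphorylation was not significantly changed when USP12 was overexpressed in human lung cancer cells. Most of the 19 target genes had lower estimates with USP12, and the few others, PDK4 and SESN1 among them, had higher ones. The groups did not overlap for 11 of the 19, 8 lower and 3 higher with USP12 (57.9%), against 36.5% of all tested genes (17% lower and 19.5% higher). Among the lower ones, IRS2, ERBB3 and CDKN1B were already counted above in the receptor or AKT substrate lists. The median log2 fold change was -0.49, against -0.06 over all tested genes. It was -0.31 without control replicate 1, -0.51 without control replicate 2 and -0.61 with the GC offset. TXNIP, an inhibitor of thioredoxin and of glucose uptake, was at 62.7 and 113 CPM in the controls and 6.12 and 4.29 CPM with USP12. PDK4, a kinase that shuts down pyruvate dehydrogenase, was at 65.9 and 132 CPM in the controls and 399 and 361 CPM with USP12. The stress-induced SESN1 was at 1.74 and 3.49 CPM against 10.4 and 9.35 CPM.

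The log2 fold changes were -4.08 ± 0.53 (SE) for TXNIP, 1.94 ± 0.44 for PDK4 and 1.90 ± 0.58 for SESN1, with edgeR quasi-likelihood adjusted p of 0.154, 0.298 and 0.436. TXNIP and PDK4 passed the threshold in other tests of the same 4 libraries, in the DESeq2 Wald test with adjusted p 2.12e-11 and 0.00704 and in edgeR's exact test with 1.37e-08 and 0.0101. With the GC offset edgeR gave adjusted p 0.0405 for TXNIP and 0.0984 for PDK4. Without control replicate 1 or without control replicate 2, all of TXNIP (-4.44 and -3.56), PDK4 (1.53 and 2.56) and SESN1 (1.497 and 2.52) passed the edgeR threshold, and none of the 3 did when a USP12 library was left out. TXNIP and PDK4 were the only 2 of the 78 tested listed genes called by either the DESeq2 Wald test or the exact test. Those tests called 2.67% and 2.82% of all genes. Both differences were larger than the gap between the controls, which was -0.86 for TXNIP and -0.996 for PDK4 on the log2 scale.

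**Figure D4:**
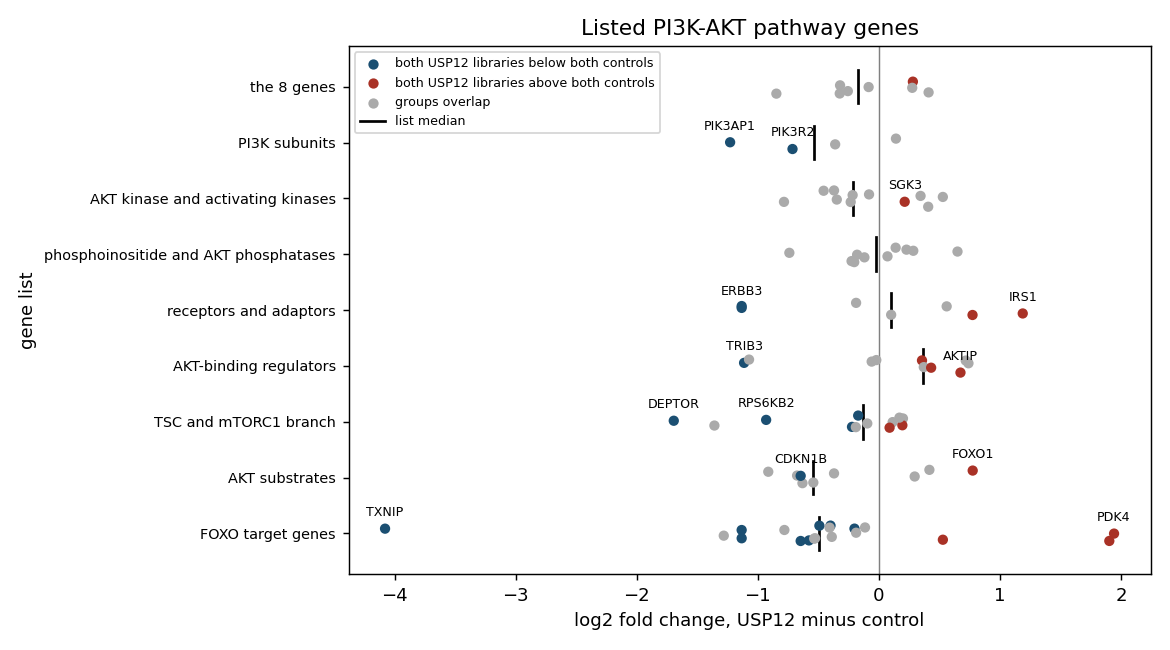
Log2 fold change, USP12 against control, of the 8 members and of every tested gene of the 8 pathway lists (points, 1 row per list), coloured by whether both USP12 libraries lie below or above both controls or the groups overlap, with a black line at each median. Values run from -4.08 (TXNIP) to 1.94 (PDK4), both FOXO target genes, and the phosphatase list lies near 0 with a median of -0.02.

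USP12 shares its cofactors WDR48 and WDR20 with the related enzyme USP46. WDR48 was at 19.7 and 29.9 CPM in the controls and 23.0 and 22.7 CPM with USP12, WDR20 at 12.0 and 9.36 CPM against 10.9 and 11.1 CPM, and USP46 at 2.04 and 9.70 CPM against 6.19 and 9.28 CPM, and in each the groups overlapped.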

How the data were processed

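RNA-seq was read from 2 control and 2 USP12-overexpressing A549 libraries, grouped by the labels. According to the study's methods, the authors trimmed reads and removed ribosomal reads with Seqtk, aligned them to GRCh38 with HISAT2 (version 2.0.4) and used StringTie (version 1.3.0) to count the fragments of each gene that mapped uniquely. The deposited values are raw counts, 1 table per library. Which annotation was counted, and whether strand was used, is not given in the sources used here. All deposited tables were used, and no column was left out.

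Counts were tested with edgeR 4.0.16 in R 4.3.3 (TMM scaling, filterByExpr, unpaired quasi-likelihood test, Benjamini-Hochberg adjustment over 15222 genes, threshold 0.05). SEs were derived from the log2 fold change and F, and 95% intervals used the moderated degrees of freedom. Log2 CPM used a prior count of 2. The steps were run on simulated counts in which 200 genes were changed by a log2 of 3. That simulation had the same spread in both groups and no GC effect, so it does not show how the test behaves on these libraries. Alternatives were DESeq2 1.42.0, edgeR's exact test, other scaling and filters, a replicate block, each replicate left out and, added after seeing the data, a GC offset (a spline with 5 degrees of freedom, for the 99.2% of tested genes with a GC value). Gene positions, lengths and GC content came from GENCODE v44.

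The members and gene lists were chosen with earlier results of these data known. Genes named beside the members were, in each list, those past the threshold and the 2 with the largest log2 fold change among genes whose groups did not overlap, and for each member the 2 genes with the nearest profile. Markers of epithelial, leukocyte, fibroblast and endothelial cells were also read. PIK3CG, PIK3R5, PIK3R6 and TCL1A had too few counts to be tested. Counts of 3 or fewer were read as the limit of detection, which covers counting error only. Some genes of the lists are counted but their values are not reported here.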

Additional observations from a re-analysis of the deposited data

How the results depend on the processing

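Without control replicate 2, AKT1 (adjusted p 0.0247), PIK3CA (0.0344), PIK3CB (0.0495) and PIK3R1 (0.0406) passed the edgeR threshold that they missed with all 4 libraries, where 32.2% of all genes did. Leaving out each library in turn gave log2 fold changes from -1.27 to -0.19 for AKT1, -0.75 to 0.32 for PHLPP2, -1.06 to 1.34 for PIK3CA, -0.10 to 0.81 for PIK3CB and -0.76 to 1.296 for PIK3R1, so all of these but AKT1 changed sign. PIK3R1 was 0.0036 without USP12 replicate 2. AKT1, AKT2, PHLPP1 and INPP4B kept their sign in all 12 alternatives. The log2 difference of the count ratios ran from -0.032 without control replicate 2 to 1.10 without control replicate 1 for PHLPP1 to PHLPP2, and from 0.53 to -0.96 for PIK3CA to PIK3CB. PIK3AP1 ran from -1.87 without control replicate 1 to 0.0065 without control replicate 2. The cause was not tested.

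Replicates share numbers in the labels, and deviations of same-numbered libraries correlated at 0.152, over only 2 pairs. With the replicate block, PIK3CA was 0.094 and PIK3R1 0.22, and with the block and the GC offset 0.037 and 0.091. Genes called lower and higher, 0 and 0 with all 4 libraries, were 251 and 153 with the block, 113 and 61 with block and GC offset, 11 and 6 with the GC offset, 361 and 167 without a filter on low counts, 273 and 133 by the DESeq2 Wald test and 262 and 167 by the exact test. Leaving out 1 library gave 28 to 2612 lower and 12 to 2550 higher.

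Over the longest transcript, levels were 62.6 (AKT2), 3.41 (PHLPP1), 2.49 (INPP4B), 1.49 (PHLPP2), 1.18 (PIK3R1) and 1.00 (PIK3CA) CPM per kilobase. The median log2 fold change of the PI3K subunits was -0.54 in edgeR's quasi-likelihood test of all 4 libraries. Without the filter, which let in subunits with too few counts for that test, it was -0.94. With 1 library left out it was -0.88 to -0.22. That of the phosphatases was -0.073 to 0.16 with 1 library left out. That of the AKT substrates was -0.54 in edgeR's quasi-likelihood test of all 4 libraries. It was -0.40 with the block, -0.36 with the GC offset, -0.31 with both and -0.50 to 0.10 with 1 library left out.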

Other observations

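TNFSF10, one of the FOXO target genes, was the second nearest profile to AKT1 among all tested genes, and FKBP5, one of the AKT-binding genes, was the second nearest to PIK3R1. Both similarities were seen after the profiles were ranked, over 4 libraries, and were not tested. The summed leukocyte list ranged from 6.26 to 32.9 CPM in controls and from 12.3 to 13.5 CPM with USP12. The summed fibroblast list ranged from 3.10 to 18.0 CPM in controls and from 16.3 to 20.7 CPM with USP12.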
